A study of Mus musculus with 2 samples.

Results

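The genes described here are 35 mouse genes of glycolysis and of the response to low oxygen, chosen as a list of names together with the condition that each have 20 or more unique molecular identifiers (UMIs, which count captured RNA molecules) in the whole matrix. All 35 listed genes met that condition, out of 32285 genes in the matrix, of which 16289 had 20 or more UMIs. They fall into 6 groups by role: glucose uptake and phosphorylation, the sugar phosphate steps, the steps from triose to pyruvate, the fate of pyruvate, oxygen sensing, and other hypoxia response genes.

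The study measured single-cell RNA from CD45+ immune cells sorted from full-thickness mouse skin after enzymatic digestion. Skin challenged with DPCP (diphenylcyclopropenone, a contact sensitizer that provokes an allergic skin inflammation) was taken on day 2, and control skin on day 0. Cells of both conditions were marked with CellPlex tags and sequenced as 1 pooled 10X Chromium 3′ library. There was 1 tagged sample per condition. The mouse strain, sex, age, the number of mice behind each tag and any sensitization schedule are not given in the sources used here.

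Glycolysis splits glucose into pyruvate in the cytosol, and pyruvate is either oxidised in mitochondria or reduced to lactate, which leaves the cell through monocarboxylate transporters. The transcription factor HIF-1, whose alpha subunit is encoded by Hif1a, is hydroxylated by oxygen-dependent prolyl hydroxylases and degraded when oxygen is plentiful; when it accumulates it binds short ACGTG or GCGTG cores and raises transcription of glucose transporters, most glycolytic enzymes, and genes such as Hilpda, Ndrg1 and Bnip3. Inflammatory signals also raise Hif1a mRNA in myeloid cells, and neutrophils rely largely on glycolysis for energy.

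The barcodes numbered 6280 for control and 7866 for DPCP skin, with 54397154 and 53748585 UMIs in all and no barcode shared. After cells with fewer than 200 genes or more than 10% mitochondrial UMIs were left out, 4970 control and 7588 DPCP cells were kept, at medians of 8803 and 4728.5 UMIs per cell. The mitochondrial limit removed 20.8% of control but 3.53% of DPCP barcodes. Classes of cells were gated by marker lists that hold none of the 35 genes, and 9 classes are described: neutrophils (102 control and 3902 DPCP cells), macrophages (393 and 206), monocytes (476 and 966), cells led by Lyz1 and Retnla (2208 and 211), type 2 conventional dendritic cells (343 and 149), mature dendritic cells (56 and 121), Langerhans cells (50 and 61), dendritic epidermal T cells (172 and 191) and other T cells (88 and 104). The name of the Lyz1 and Retnla cells gives their leading genes and is not a cell type. Neutrophils made up 2.05% of kept control and 51.4% of kept DPCP cells. The gate left 903 control and 1532 DPCP cells in no class. For every class, from 1 to 4 of its own markers stood among its 10 leading genes; the low end was the Langerhans class, whose 1 such marker was Cd207.

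Levels are given as CPM, the UMIs of a gene per 1000000 UMIs of the summed cells. With 1 sample per condition there is no test between conditions. A gene is called higher or lower when the DPCP level was at least 1.5-fold above or below the control level and the gene had at least 50 UMIs over both conditions in that class. Intervals in brackets are exact 95% intervals that cover counting error only, not the spread between mice. Levels in 3′ UMI counts are compared between conditions or classes for 1 gene, not between genes. Gapdh, Pgk1, Ldha, Eno1 and Aldoa have near-identical copies elsewhere in the mouse genome, so their levels are less certain. Of 2 features named Aldoa, the one with more UMIs was used.

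RNA typical of neutrophils moved with the condition. The summed level of S100a8 and S100a9 in the 8 other classes was 429 to 1561 CPM in control and 3145 to 9232 CPM in DPCP cells, against 69747 and 94416 CPM in neutrophils. All 14 neutrophil markers together summed to 676 to 2301 CPM in control and 3851 to 11233 CPM in DPCP cells of those classes. Cells with more than 19 UMIs of S100a8 and S100a9 made up 0% to 2% of each other class in control and 10.2% to 27.2% in DPCP skin. Values recomputed without those cells are given beside the named calls they end; the part of neutrophil RNA in the other results was not tested. Fibroblast markers summed to at most 14.9 CPM, erythroid markers to at most 10.5 CPM, keratinocyte markers to at most 89.1 CPM and endothelial markers to at most 122 CPM in any of the 8 classes. Melanocyte markers, which include Mitf, a gene that myeloid cells also use, summed to between 36.3 and 527 CPM.

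The sequences before the start sites of 5 members are shown because their RNA levels carry most of what follows and because they differ in HIF cores. RefSeq promoter windows on GRCm38.p6 matched 31 of the 35 genes by symbol; Slc2a3, Bnip3l, Ndrg1 and Ero1l had none. Each run is read 5′ to 3′ on the gene's strand and ends just before the start site, with exonic bases left off, and capitals mark ACGTG or GCGTG on either strand (CACGT or CACGC where it lies on the other strand). Slc2a1 lies at chr4:119108495-119108710, Hilpda at chr6:29272238-29272487, Hif1a at chr12:73907617-73907866, Pgk1 at chrX:106186850-106187099 and P4ha1 at chr10:59323046-59323295, all on the plus strand.
Slc2a1: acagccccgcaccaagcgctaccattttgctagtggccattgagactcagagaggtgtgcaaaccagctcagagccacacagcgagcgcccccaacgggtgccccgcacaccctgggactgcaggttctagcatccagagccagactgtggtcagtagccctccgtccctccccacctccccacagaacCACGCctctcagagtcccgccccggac
Hilpda: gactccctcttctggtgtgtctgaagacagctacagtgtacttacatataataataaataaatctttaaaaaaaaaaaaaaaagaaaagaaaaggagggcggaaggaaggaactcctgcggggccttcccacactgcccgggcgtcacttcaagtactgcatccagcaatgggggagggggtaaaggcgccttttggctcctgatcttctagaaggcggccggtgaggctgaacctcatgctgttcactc
Hif1a: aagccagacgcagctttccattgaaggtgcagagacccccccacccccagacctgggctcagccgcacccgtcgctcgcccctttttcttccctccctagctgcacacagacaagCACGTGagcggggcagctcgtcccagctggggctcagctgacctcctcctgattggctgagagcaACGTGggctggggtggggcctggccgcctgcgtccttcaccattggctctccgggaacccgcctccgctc
Pgk1: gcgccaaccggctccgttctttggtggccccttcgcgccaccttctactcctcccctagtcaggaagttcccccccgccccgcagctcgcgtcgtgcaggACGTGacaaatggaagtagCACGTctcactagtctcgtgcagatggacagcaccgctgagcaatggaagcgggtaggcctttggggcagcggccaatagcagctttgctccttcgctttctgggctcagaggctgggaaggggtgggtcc
P4ha1: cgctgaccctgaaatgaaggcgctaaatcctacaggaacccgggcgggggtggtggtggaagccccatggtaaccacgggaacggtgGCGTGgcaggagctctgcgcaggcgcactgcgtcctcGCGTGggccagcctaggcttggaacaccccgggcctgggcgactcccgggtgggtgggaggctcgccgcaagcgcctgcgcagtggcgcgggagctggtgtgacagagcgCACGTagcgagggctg
The Slc2a1 run shown holds 1 core, the Hilpda run none, Hif1a 3, Pgk1 2 and P4ha1 3, where the palindrome CACGTG counts once on each strand. The full window of Slc2a1 holds 2, since the other core begins at the end of the run and reaches into the exonic bases left off. The full window of the second RefSeq start of Hilpda, exonic bases included, holds 3. In the 250 bases before the start, 36 of 45 windows of the members (80%) held a core, in 28 of the 31 matched genes. The same search found one in 38.6% of all 32851 windows and in 52.1% of the 15258 windows of genes with 20 or more UMIs. A match of these letters is a description of the sequence and not a site of binding.

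In neutrophils, the class that filled DPCP skin, 18 of the 30 counted genes were higher in DPCP cells and 4 were lower. The share of all 9918 counted genes was 17% higher and 28.4% lower, and the median log2 ratio was 0.72 for the 30 genes against -0.21 for all genes. The interval of the ratio stayed above 1 for 15 of the 18. The control side of this class was thin, 297004 UMIs against 19508522, and 914 of the 9918 genes had no control UMI. Among genes with at least 1000 UMIs the shares were 19.96% higher and 21.4% lower, and 15 of 24 members were higher and 2 lower. Scaling by trimmed means (TMM) would add 0.25 to every log2 ratio of this class, which puts the lower calls of Egln1 and of Pygl, the glycogen phosphorylase, within the 1.5-fold limit.

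In macrophages 16 of 29 counted genes were higher and none lower, where 11.5% of all genes were higher and 8.39% lower. The median log2 ratio was 0.64 for the members and 0.03 for all genes, and all 16 intervals stayed above 1. All 16 were also at least 1.5-fold higher without the cells that held neutrophil RNA. Macrophages were also taken as clusters 14 and 22 of an unsupervised clustering, named from the same markers (202 control and 76 DPCP cells). Cluster 4 got no name and was left out there. It held 54.7% of the gated control and 40.3% of the gated DPCP macrophages. Under these clusters in place of the gate, 7 members were higher. Calls that ended there included Hif1a (ratio 1.23), Tpi1 (1.35), Pgk1 (1.26), Pkm (1.44) and Aldoa (1.28), while Slc2a1 (5.06), Ndrg1 (2.89), Bnip3 (2.35) and Slc16a3 (2.22) kept theirs.

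Monocytes had 12 of 31 genes higher and none lower, against 11% and 11.4% of all genes, and 8 of the 12 kept the call without cells holding neutrophil RNA. Most control monocytes (54.6%) lay in cluster 4 of the same clustering and most DPCP monocytes (66.6%) in cluster 5, so the ratios also hold that difference in makeup. Under clusters in place of the gate the monocyte ratios of Hif1a (1.40), Bnip3 (1.42), Aldoa (1.32) and Pgk1 (1.31) fell under 1.5. The Lyz1 and Retnla cells had 10 of 31 higher and 1 lower, against 8.65% and 9.64%. Type 2 conventional dendritic cells had 5 of 30 higher and 2 lower, against 10.7% and 11.9%, and 2 of the 5 kept the call without cells holding neutrophil RNA. Under clusters in place of the gate 1 of the 5 kept it, with Slc16a3 at a ratio of 1.52 and Slc2a1 at 1.17. The count of 5 is close to the background, as is the one for T cells, where 5 of 25 were higher and 2 lower against 11.1% and 8.78%.

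Mature dendritic cells had 16 of 24 genes higher and 1 lower, against 22% and 10.8% of all genes, with a median log2 ratio of 0.81 against 0.10. Of the 16, 12 kept the call without cells holding neutrophil RNA and 11 under clusters in place of the gate. Langerhans cells had 12 of 23 higher and none lower, against 26.3% and 18.6%. Dendritic epidermal T cells had 8 of 28 higher and 2 lower, against 12.1% and 9.12%; without cells holding neutrophil RNA the ratio stayed at 1.5 or more for Hilpda, Ndrg1, Slc2a1 and Pkm, and 3 of these 4 also met the UMI minimum. Over all kept cells, where the change in cell makeup enters, 14 of 34 were higher and 2 lower against 21% and 25.6%. In the gated classes the members thus stood furthest above the background share in neutrophils, macrophages and mature dendritic cells.

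**Figure D1:**
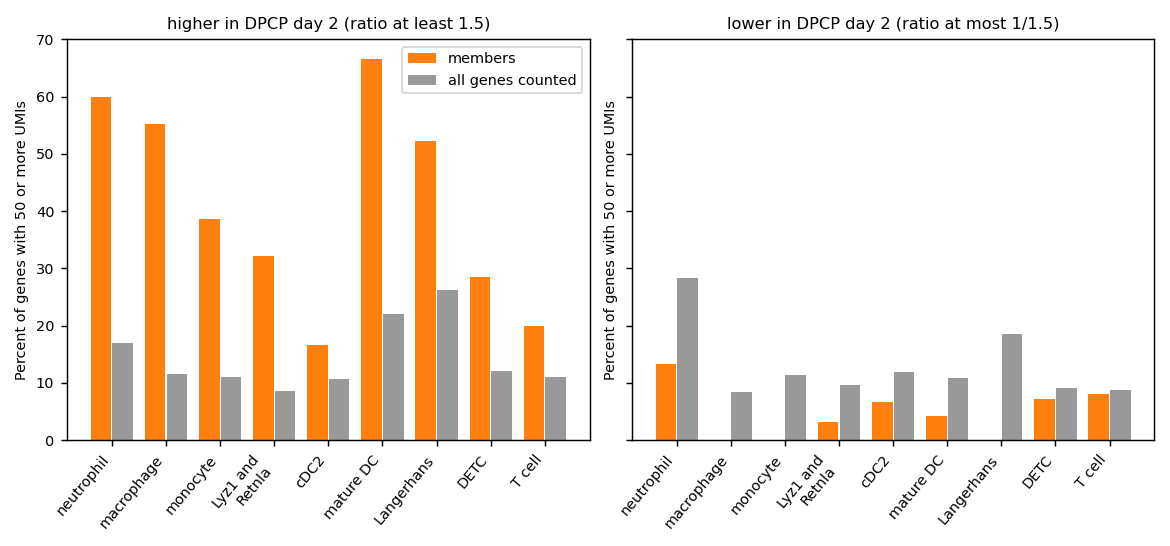
Percent of the counted glycolysis and hypoxia genes, and of all counted genes, that were at least 1.5-fold higher or lower in DPCP cells, for each of the 9 cell classes. In macrophages 55.2% of the members were higher against 11.5% of all genes, and in type 2 conventional dendritic cells 16.7% against 10.7%.

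**Figure D2:**
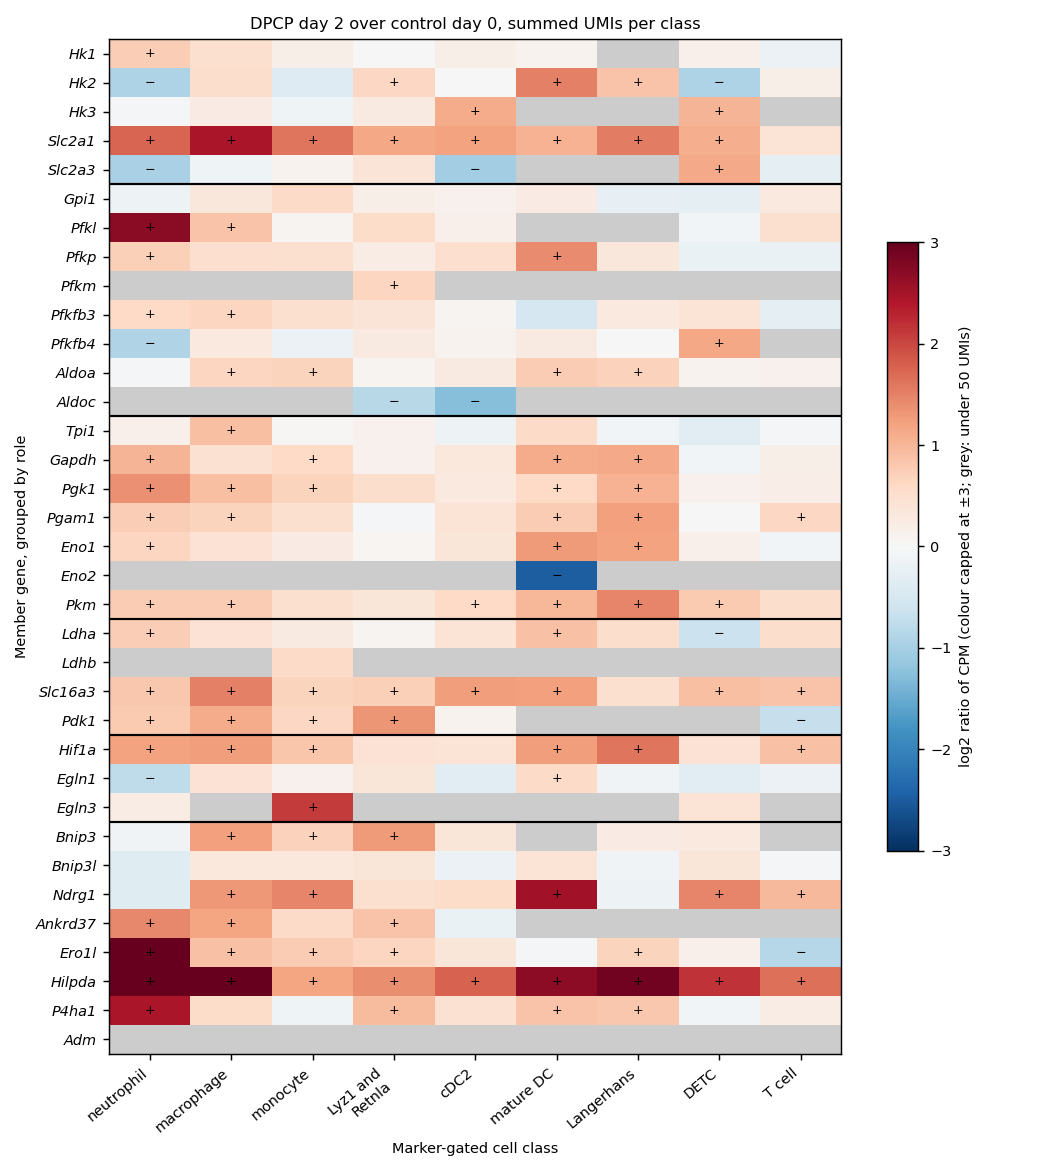
Log2 ratio of DPCP over control CPM for each of the 35 genes (rows, grouped by role) in 9 cell classes (columns), drawn from -3 to 3 with larger values at the ends of the scale; grey marks fewer than 50 UMIs, and plus and minus mark a ratio of at least 1.5-fold. Hilpda carries a plus in all 9 classes, and Slc2a1 and Slc16a3 in 8 each.

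Glucose enters these cells through facilitative transporters, of which the list holds Slc2a1 (GLUT1) and Slc2a3 (GLUT3). Slc2a1 was higher in DPCP cells of 8 of the 9 classes. In macrophages the level was 10.3 CPM at rest and 56.5 CPM after DPCP, a ratio of 5.5 (3.83 to 8.05), and without cells holding neutrophil RNA the ratio was 5.03. In neutrophils it was 43.8 and 146 CPM, a ratio of 3.34 (1.95 to 6.28). Monocytes had 18 and 55 CPM (ratio 3.06, 2.39 to 3.98) and Langerhans cells 29.7 and 86.1 CPM (ratio 2.9, 1.69 to 5.3). These 4 ratios lay well above counting error.

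The Slc2a1 ratio was 2.22 in Lyz1 and Retnla cells (24.3 and 53.8 CPM), 2.3 in type 2 conventional dendritic cells (21.5 and 49.4 CPM, but 1.17 under clusters) and 2.14 in dendritic epidermal T cells (25.7 and 55.2 CPM; 1.68 without cells holding neutrophil RNA). In mature dendritic cells, at 12.6 and 25.8 CPM, the interval reached down to 1, and with every cell weighted equally the direction turned, to a log2 ratio of -0.37. T cells had 36.4 and 48.1 CPM, a ratio of 1.32 whose interval of 0.835 to 2.14 included 1. Across control classes Slc2a1 ran from 10.3 CPM in macrophages to 43.8 CPM in neutrophils. In DPCP skin it was highest in neutrophils (146 CPM), then Langerhans cells (86.1 CPM), then 6 classes between 48.1 and 56.5 CPM whose intervals overlapped, and lowest in mature dendritic cells.

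Slc2a3 went the other way in neutrophils, where a control level of 535 CPM and a DPCP level of 272 CPM gave a ratio of 0.508 (0.434 to 0.598). It was also lower in type 2 conventional dendritic cells, at 43 and 20.8 CPM (ratio 0.482, 0.327 to 0.696). That call ended with every cell weighted equally (ratio 0.682). Thus neutrophils held more Slc2a1 and less Slc2a3 RNA after DPCP. Dendritic epidermal T cells had 13.8 and 30.5 CPM of Slc2a3, a ratio of 2.2 that fell to a log2 value of -0.44 without cells holding neutrophil RNA. In macrophages, monocytes, Lyz1 and Retnla cells and T cells the ratio stayed between 0.829 and 1.3.

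The hexokinases, which trap glucose by phosphorylation, did not share a direction. Hk2 was lower in DPCP neutrophils (87.5 and 46.4 CPM, ratio 0.53) and dendritic epidermal T cells (66.6 and 35.1 CPM, ratio 0.527). The call in neutrophils ended within the cluster that both conditions share (ratio 0.681, with 1 inside its interval), and the one in dendritic epidermal T cells where a cell's own tag had to hold at least 80% of its tag counts (ratio 0.757). It was higher in mature dendritic cells (15.4 and 44 CPM, ratio 2.86, 1.53 to 5.93), Langerhans cells (63 and 115 CPM, ratio 1.82) and Lyz1 and Retnla cells (83.8 and 130 CPM, ratio 1.55). Hk1 was called higher in neutrophils alone, where 10 control UMIs left an interval of 0.91 to 3.51. Hk3, the myeloid hexokinase, was at 172 and 166 CPM in control and DPCP neutrophils. It was called higher in type 2 conventional dendritic cells (14.7 and 32 CPM) and dendritic epidermal T cells (14.4 and 29.3 CPM). Without cells holding neutrophil RNA the ratio was 1.25 in the former and the log2 ratio -0.087 in the latter, and under clusters the type 2 conventional dendritic cell log2 ratio was -0.0040. The part of neutrophil RNA in these calls was not tested.

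Among the sugar phosphate steps, Gpi1, the glucose phosphate isomerase, was counted in 9 classes and called in none. The aldolase gene Aldoa was higher in macrophages (174 and 270 CPM, ratio 1.55), monocytes (174 and 276 CPM, ratio 1.59), mature dendritic cells (172 and 293 CPM, ratio 1.7) and Langerhans cells (295 and 475 CPM, ratio 1.61). In neutrophils Aldoa stood at 293 and 288 CPM. Aldoc, the brain-type aldolase, was rare and lower in type 2 conventional dendritic cells (16.2 and 6.73 CPM, ratio 0.415, 0.202 to 0.785, but 0.735 under clusters) and in the Lyz1 and Retnla cells, whose interval included 1.

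The phosphofructokinase genes encode the committed step. Pfkp was higher in mature dendritic cells (46.1 and 124 CPM, ratio 2.69, 1.87 to 4) and neutrophils (57.2 and 94.2 CPM, ratio 1.65). Pfkl was higher in macrophages (20.6 and 37.3 CPM, ratio 1.81) and in neutrophils, where control cells had 1 UMI and the interval ran from 1.17 to 259. Pfkm passed the UMI minimum only in the Lyz1 and Retnla cells, at 2.1 and 3.29 CPM. Its interval there included 1.

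Pfkfb3 and Pfkfb4 make the fructose bisphosphate that activates phosphofructokinase. In neutrophils Pfkfb4 had 293 CPM at rest and 156 CPM after DPCP, a ratio of 0.531 (0.429 to 0.665). Within cluster 2, which holds most control neutrophils, the Pfkfb4 ratio was 0.832 (0.661 to 1.06), and the call ended. In dendritic epidermal T cells it was at 15.1 and 33.9 CPM, a ratio of 2.25 that was 1.13 without cells holding neutrophil RNA. Pfkfb3 was called higher in macrophages (51.1 and 79.8 CPM, ratio 1.56) and neutrophils (108 and 164 CPM, ratio 1.53). Its level in mature dendritic cells, 507 CPM in control and 355 CPM in DPCP skin, exceeded that of every other class in both conditions, and the ratio of 0.7 (0.616 to 0.795) did not reach the 1.5-fold limit.

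The steps from triose to pyruvate were mostly higher in 4 classes. In neutrophils 5 of 6 counted genes of this group were higher, in Langerhans cells 5 of 6, in macrophages 4 of 6 and in mature dendritic cells 5 of 7, with 1 lower. The shares of all genes that were higher in these classes were 17%, 26.3%, 11.5% and 22%. Gapdh, which yields NADH, was at 330 and 668 CPM in neutrophils (ratio 2.02, 1.66 to 2.49), 384 and 837 CPM in mature dendritic cells (ratio 2.18) and 345 and 757 CPM in Langerhans cells (ratio 2.19). Its log2 ratio was 0.69 within the neutrophil cluster that both conditions share. Monocytes sat just inside the limit, at 532 and 805 CPM (ratio 1.51, but 1.49 without cells holding neutrophil RNA). Gapdh was not called in the other classes: macrophages had 472 and 648 CPM, Lyz1 and Retnla cells 640 and 702 CPM, type 2 conventional dendritic cells 504 and 628 CPM, T cells 603 and 683 CPM, and dendritic epidermal T cells 382 and 361 CPM.

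Pgk1, the first ATP-yielding step, was at 60.6 and 156 CPM in neutrophils (ratio 2.57, 1.62 to 4.34), 98.4 and 185 CPM in macrophages (ratio 1.88) and 87.1 and 179 CPM in Langerhans cells (ratio 2.06). Under clusters the macrophage ratio of Pgk1 was 1.26. Pkm, which makes pyruvate, was called higher in 6 classes. Its levels were 387 and 655 CPM in neutrophils (ratio 1.69), 238 and 406 CPM in macrophages (ratio 1.71), 195 and 538 CPM in Langerhans cells (ratio 2.76, 2.24 to 3.44) and 181 and 311 CPM in dendritic epidermal T cells (ratio 1.72). The Pkm call ended in the shared neutrophil cluster (ratio 1.21) and in macrophages taken by clusters (ratio 1.44). Pkm was thus called in more classes than Gapdh, which was called in 4.

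Pgam1, the phosphoglycerate mutase, was higher in 5 classes, with ratios from 1.54 in T cells (1.47 without the 5% of cells with the highest doublet scores) to 2.35 in Langerhans cells. Eno1, the common enolase, was higher in mature dendritic cells (ratio 2.43), Langerhans cells (ratio 2.32) and neutrophils (ratio 1.58). Tpi1, the triose phosphate isomerase, was called in macrophages alone, at 104 and 195 CPM (ratio 1.87, 1.63 to 2.15, but 1.35 under clusters). Eno2, the neuron-type enolase, was nearly confined to mature dendritic cells, where control cells had 53.1 CPM and DPCP cells 9.56 CPM, a ratio of 0.18 (0.0992 to 0.317); in each of the 8 other classes it was at most 1.03 CPM.

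Pyruvate is turned to lactate by lactate dehydrogenase, and lactate leaves through Slc16a3 (MCT4), the exporter of glycolytic cells. Slc16a3 was higher in 8 of 9 classes. Its levels were 40.6 and 116 CPM in macrophages (ratio 2.86, 2.34 to 3.51), 33.3 and 79.6 CPM in type 2 conventional dendritic cells (ratio 2.39) and 236 and 411 CPM in neutrophils (ratio 1.75, but 1.31 in the shared cluster). Langerhans cells, at 46.3 and 64.3 CPM, were the exception with a ratio of 1.39. Without cells holding neutrophil RNA the macrophage and type 2 conventional dendritic cell ratios were 2.76 and 2.22, while the dendritic epidermal T cell ratio went from 1.87 to 1.10 and the monocyte ratio from 1.58 to 1.38.

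Ldha differed less. It was higher in mature dendritic cells (75.5 and 140 CPM, ratio 1.85, 1.38 to 2.52) and neutrophils (94.3 and 156 CPM, ratio 1.66) and lower in dendritic epidermal T cells (171 and 110 CPM, ratio 0.644, 0.532 to 0.777, but 0.705 with at least 80% of tag counts from the cell's own tag). Ldhb, the heart-type subunit, was counted only in monocytes, at 5.64 and 8.45 CPM. Pdk1, which shuts pyruvate out of the mitochondrial dehydrogenase, was higher in macrophages (19 and 41.2 CPM, ratio 2.17, 1.58 to 2.98), Lyz1 and Retnla cells (15.2 and 37.8 CPM, ratio 2.49, 1.97 to 3.13) and monocytes (ratio 1.55). In T cells it stood at 38.9 and 24 CPM, with an interval that included 1.

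**Figure D3:**
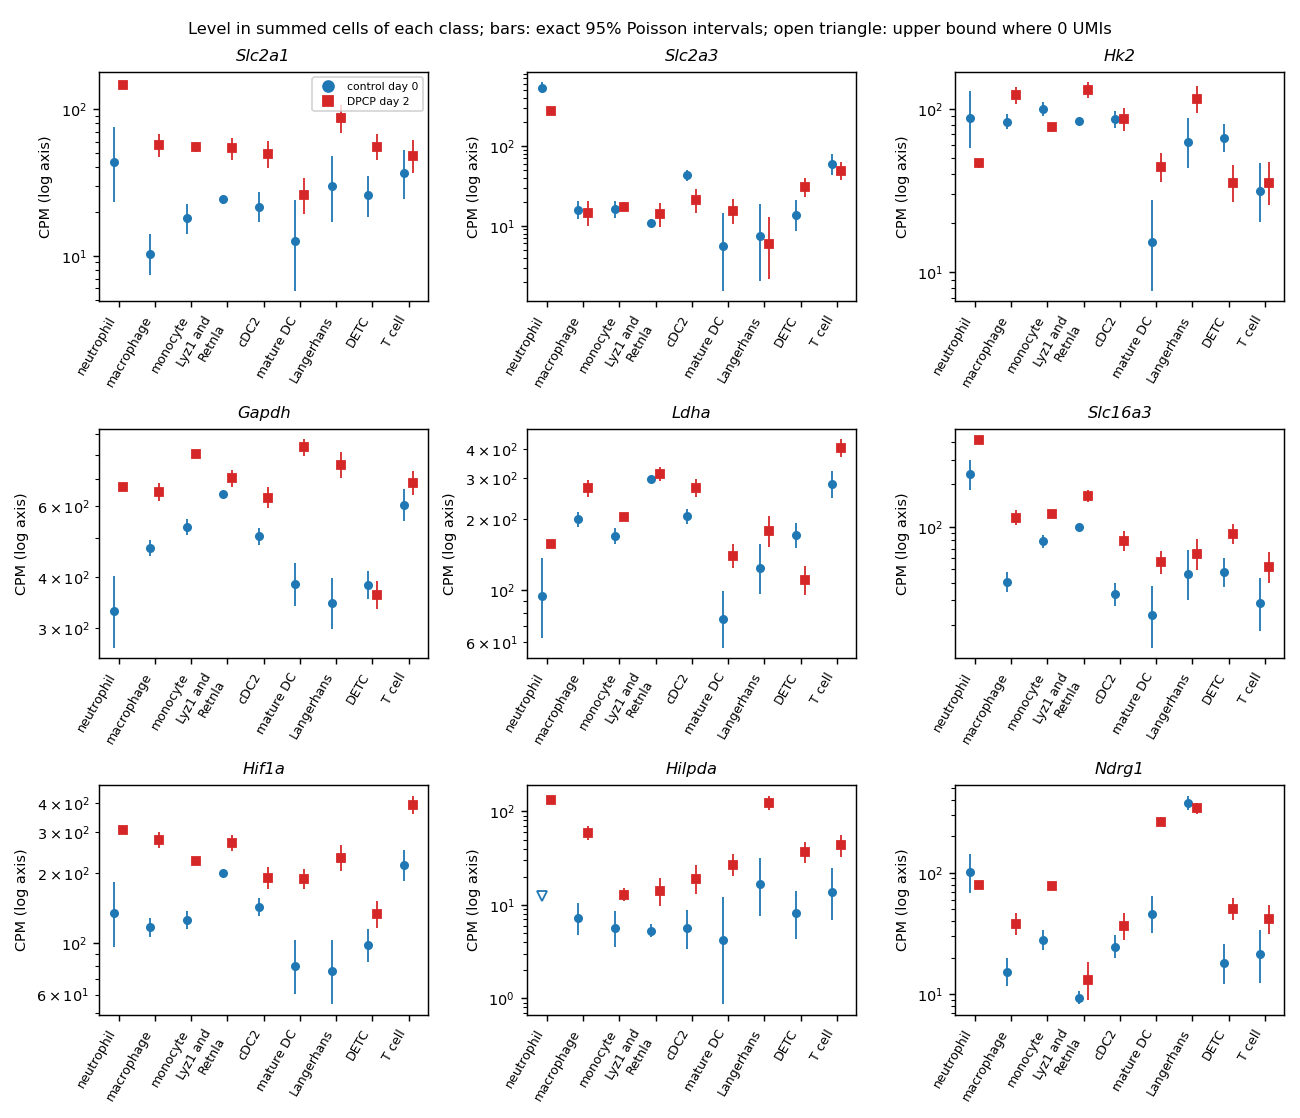
CPM on a log axis of 9 members (Slc2a1, Slc2a3, Hk2, Gapdh, Ldha, Slc16a3, Hif1a, Hilpda and Ndrg1) in control and DPCP cells of 9 classes, with exact 95% counting intervals as bars and an open triangle at the upper bound where no UMI was seen. Slc2a1 and Slc16a3 lie higher in the DPCP sample of every class drawn, while Slc2a3 in neutrophils lies lower, at 272 against 535 CPM.

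Oxygen sensing was represented by Hif1a and the prolyl hydroxylases Egln1 and Egln3, which mark its protein for degradation. Hif1a RNA was higher in 6 classes, at 135 and 309 CPM in neutrophils (ratio 2.29, 1.68 to 3.21), 117 and 280 CPM in macrophages (ratio 2.39, 2.12 to 2.7) and 76 and 232 CPM in Langerhans cells (ratio 3.06, 2.19 to 4.37). Mature dendritic cells had 79.7 and 189 CPM (ratio 2.37), T cells 217 and 396 CPM (ratio 1.82) and monocytes 126 and 225 CPM (ratio 1.78). In the 3 other classes the ratio was 1.34 to 1.36. Under clusters the calls in macrophages (ratio 1.23) and monocytes (ratio 1.40) ended. T cells held the highest Hif1a level of the 9 classes in DPCP skin.

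Egln1 was called lower in neutrophils (33.7 and 19.9 CPM), on 10 control UMIs and with an interval that included 1. Mature dendritic cells had the only higher call, 25.2 and 37.7 CPM, also with 1 inside the interval. Egln3 reached the UMI minimum in 3 classes. It was higher in monocytes, at 2.82 and 12.2 CPM (ratio 4.31, 2.34 to 8.83, and 2.18 under clusters), and 4 of the 966 DPCP monocytes held 24.3% of its 144 UMIs. In neutrophils Egln3 was at 60.6 and 71.2 CPM, a difference within counting error.

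Hilpda encodes a small lipid droplet protein that restrains triglyceride breakdown, and it was the 1 member called higher in all 9 classes. Neutrophils had none among 297004 control UMIs and 131 CPM in DPCP cells; set against the 3 counts that a count of 0 allows, this is at least 12.96-fold higher. Its 2553 UMIs there lay in 797 of 3902 cells, and 146 cells with 5 or more held 52.5% of them. Langerhans cells had 16.7 and 124 CPM (ratio 7.41, 3.78 to 16.6), with 9 of 61 cells holding 73.6% of 125 UMIs. In both classes a minority of cells thus held most of the Hilpda RNA.

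In macrophages Hilpda was at 7.19 and 59.2 CPM, a ratio of 8.23 (5.44 to 12.8), and 9 of 206 DPCP cells held 77.8% of the 135 UMIs. Of these UMIs, 70 came from 22 gated cells that lay in cluster 16, named Langerhans from its markers, and 32 from 2 cells of cluster 0, a neutrophil cluster. In clusters 14 and 22, named macrophage from their markers, the log2 ratio of Hilpda was -0.25. The macrophage call therefore rests on cells that the gate and the clusters place differently.

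Outside these classes the Hilpda ratio was 6.38 in mature dendritic cells (4.19 and 26.8 CPM, on 3 control UMIs), 4.51 in dendritic epidermal T cells (8.16 and 36.8 CPM), 3.41 in type 2 conventional dendritic cells (5.6 and 19.1 CPM), 3.14 in T cells (13.8 and 43.3 CPM), 2.63 in Lyz1 and Retnla cells (5.32 and 14 CPM) and 2.28 in monocytes (5.64 and 12.8 CPM). Of the 56 Hilpda UMIs in DPCP mature dendritic cells, 5 of 121 cells held 66.1%. Of the same 56 UMIs, 21 came from 5 gated cells in cluster 18, which got no name from its markers. Without cells holding neutrophil RNA the Hilpda ratio was 4.51 in mature dendritic cells and 2.81 in dendritic epidermal T cells. It was 1.96 in T cells, 1.64 in Lyz1 and Retnla cells, 1.17 in type 2 conventional dendritic cells and 1.07 in monocytes, so that the last 2 no longer reached 1.5-fold. In Lyz1 and Retnla cells the log2 ratio was -0.11 without the 5% of cells with the highest doublet scores, and under clusters the ratio was 1.34 there and 1.39 in type 2 conventional dendritic cells. For Langerhans cells, leaving out cells holding neutrophil RNA left 49 control cells, under the minimum of 50, and no value was computed.

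Ndrg1, a stress-induced gene of differentiation, showed its widest difference in mature dendritic cells, at 46.1 and 264 CPM (ratio 5.72, 4.02 to 8.39), where 36 of 121 DPCP cells held 82.8% of the 552 UMIs. It was also higher in macrophages (15.4 and 38.1 CPM, ratio 2.47), monocytes (28.2 and 78.2 CPM, ratio 2.77, 2.27 to 3.41), dendritic epidermal T cells (18.2 and 50.6 CPM, ratio 2.78) and T cells (21.3 and 41.7 CPM, ratio 1.95). Langerhans cells held 376 CPM in control and 339 CPM in DPCP skin. Thus the class with the highest Ndrg1 level at rest did not differ between conditions beyond counting error.

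Ero1l encodes an oxidase of the endoplasmic reticulum that forms disulfide bonds, and P4ha1 a subunit of collagen prolyl hydroxylase. In neutrophils Ero1l was at 10.1 and 82 CPM (ratio 8.12, 2.77 to 39.4, on 3 control UMIs) and P4ha1 at 13.5 and 73 CPM (ratio 5.42, 2.11 to 19.9, on 4 control UMIs). Within the neutrophil cluster that both conditions share, P4ha1 was at 15.5 and 26.6 CPM, a log2 ratio of 0.78. Ero1l was at 7.73 and 27.1 CPM there. Ero1l was lower in T cells, at 119 and 65.7 CPM (ratio 0.551, 0.405 to 0.749), and P4ha1 was higher in Lyz1 and Retnla cells, at 60.8 and 118 CPM (ratio 1.94, 1.71 to 2.2). The mitophagy receptor Bnip3 was higher in macrophages (22.4 and 52.6 CPM, ratio 2.35), Lyz1 and Retnla cells (17.9 and 43.5 CPM, ratio 2.43) and monocytes (ratio 1.6). Without cells holding neutrophil RNA the monocyte ratio of Bnip3 was 1.49. Its relative Bnip3l was counted in 9 classes and called in none. Ankrd37 was higher in macrophages (ratio 2.26), Lyz1 and Retnla cells (ratio 1.81) and neutrophils (on 2 control UMIs). Adm, which encodes the peptide adrenomedullin, had 23 UMIs over all kept cells and reached the minimum in no class; control mature dendritic cells held 18.2 CPM and DPCP ones 2.39 CPM.

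The remaining members can be followed class by class. In monocytes Ero1l (23.6 and 39.7 CPM, ratio 1.68), Bnip3 (13.6 and 21.8 CPM) and Pgk1 (131 and 208 CPM, ratio 1.59; 1.31 under clusters) were called, while the abundant Pkm (314 and 438 CPM, ratio 1.39), Gpi1 (202 and 298 CPM, ratio 1.48) and Eno1 (209 and 247 CPM, ratio 1.18) were not. Hk2 was at 100.1 and 77.1 CPM there. The calls in monocytes thus took in 2 genes of transport, Hif1a, Egln3, a few enzymes, and the hypoxia response genes Hilpda, Ndrg1, Bnip3 and Ero1l.

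In Lyz1 and Retnla cells none of the 6 counted triose to pyruvate genes was called, with Pkm at 283 and 366 CPM (ratio 1.29). The aldolase gene Aldoa stood at 317 and 337 CPM, and Ldha at 297 and 313 CPM. In the same cells 5 of 7 counted hypoxia response genes were higher, among them Ero1l at 32.2 and 50.1 CPM (ratio 1.56, 1.28 to 1.88, but 1.39 under clusters). Without cells holding neutrophil RNA the Ero1l ratio there was 1.497, just under the limit. Of all genes counted in this class, 8.65% were higher. Type 2 conventional dendritic cells had Pkm at the limit (212 and 322 CPM, ratio 1.52). The Pkm ratio there was 1.47 without cells holding neutrophil RNA and 1.45 under clusters. Short of the limit were Pfkp (160 and 227 CPM, ratio 1.42), Ldha (206 and 273 CPM, ratio 1.32) and Ndrg1 (24.7 and 36.5 CPM, ratio 1.47).

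Mature dendritic cells and Langerhans cells stood apart from those in the lower chain. Eno1 was at 39.1 and 95.1 CPM in mature dendritic cells and 68.6 and 159 CPM in Langerhans cells, and Pgam1 in Langerhans cells at 59.3 and 139 CPM. Pkm in mature dendritic cells was at 141 and 283 CPM (ratio 2.01). Dendritic epidermal T cells lacked this pattern, with Tpi1 at 115 and 90.2 CPM (ratio 0.785) and Gpi1 at 192 and 156 CPM (ratio 0.813). T cells had Pkm at 267 and 385 CPM (ratio 1.44), Ldha at 282 and 404 CPM (ratio 1.43) and Slc16a3 at 28.8 and 52.1 CPM (ratio 1.81, 1.11 to 3.04, but a log2 ratio of 0.27 without the highest doublet scores).

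The neutrophil class was not 1 population. Cells were clustered on variable genes without the 35 members: 93.1% of control neutrophils (95 cells) lay in cluster 2, while DPCP neutrophils lay in cluster 2 (26% of them), cluster 0 (25.4%), cluster 6 (17.5%), cluster 8 (16.7%) and cluster 10 (469 cells). Cluster 8 carried the most Retnlg RNA (13365 CPM), a granulocyte secreted protein, and clusters 0 and 6 the most Ccl3 (2369 and 3520 CPM), a chemokine, and Spp1 (4007 and 7945 CPM), which encodes osteopontin. The clusters were made from kept cells of both conditions. Comparisons between clusters use DPCP cells of 1 sample, so those differences are given as descriptions.

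Within cluster 2, which both conditions share, 8 of 27 counted members were higher in DPCP cells and 3 lower, against 14.7% and 16.5% of all genes, with a median log2 ratio of 0.12. Slc2a1 was at 46.4 and 131 CPM there (ratio 2.83, 1.60 to 5.51) and Slc2a3 at 557 and 351 CPM (ratio 0.631, 0.531 to 0.755). Hif1a had a ratio of 1.61 (1.15 to 2.34) and Pkm one of 1.21 (0.98 to 1.51). Hilpda had no control UMI and 3.67 CPM in DPCP cells of this cluster. The opposite directions of the glucose transporter genes were thus present within the shared cluster, and most of the difference in Hilpda was not.

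Across DPCP neutrophils several members, among them the 3 hypoxia response genes Hilpda, Ero1l and P4ha1, had their lowest and their highest levels in the same pairs of clusters. Hilpda was at 3.67 CPM in cluster 2, 4.83 CPM in cluster 8, 99.8 CPM in cluster 10, 215 CPM in cluster 0 and 339 CPM in cluster 6. Ero1l was at 27.1, 16, 76.3, 144 and 143 CPM in the same order, and P4ha1 at 26.6, 25.3, 68.4, 120 and 112 CPM. Cluster 12 was named monocyte from its markers, and 156 gated DPCP monocytes lay in it beside 54 gated DPCP neutrophils. Those 54 cells had a median of 11572.5 UMIs, against at most 7632 in the other clusters. Hilpda was at 36.6, Ero1l at 62 and P4ha1 at 94.4 CPM in them. All 3 genes were lowest in clusters 2 and 8 and highest in clusters 0 and 6. The order inside these pairs was not the same for all 3. Ankrd37 shared the pattern, at 11.6 and 6.94 CPM in clusters 2 and 8 and 27.6 and 27.5 CPM in clusters 0 and 6. So did Hk1, Pfkfb3, Pgam1 and Pfkp, so the pattern was not particular to hypoxia response genes. Hk1 was at 29.7 and 22 CPM in clusters 2 and 8 and at 92.7 and 79.5 CPM in clusters 0 and 6. Ndrg1 did not share that pattern, at 66.4 CPM in cluster 2, 118 CPM in cluster 0 and 66.8 CPM in cluster 6. Bnip3 was higher in cluster 2 (58.8 CPM) than in clusters 0 and 6 (39.3 and 40.7 CPM). Slc2a1 ran from 97.2 CPM in cluster 12 to 191 CPM in cluster 6.

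Some other members ran against that pattern. Slc2a3 was at 351 CPM in cluster 2 and 528 CPM in cluster 8, but 48 CPM in cluster 0 and 198 CPM in cluster 6. Pfkfb4 was at 257 and 243 CPM in clusters 2 and 8, and 66.1 and 59.1 CPM in clusters 0 and 6. Gpi1 likewise fell from 339 and 406 CPM to 114 and 83 CPM. Pkm was at 434 CPM in cluster 2 and 876 CPM in cluster 0. Slc16a3 was at 310 CPM in cluster 2 and 658 CPM in cluster 6.

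By count, 16 of 30 members were higher in cluster 0 than in cluster 2 and 5 lower, against 27% and 24.9% of all genes. In cluster 6, 14 of 30 were higher and 5 lower, against 19.9% and 40.6%. Cluster 10 had 10 of 30 higher and none lower, against 13% and 20.7%. Cluster 8 had 3 of 29 higher and 6 lower, against 3.04% and 28.5%. Cluster 12, named monocyte from its markers, had 8 of 29 higher and 5 lower, against 28.3% and 19.6%, so both its counts are near the background.

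**Figure D4:**
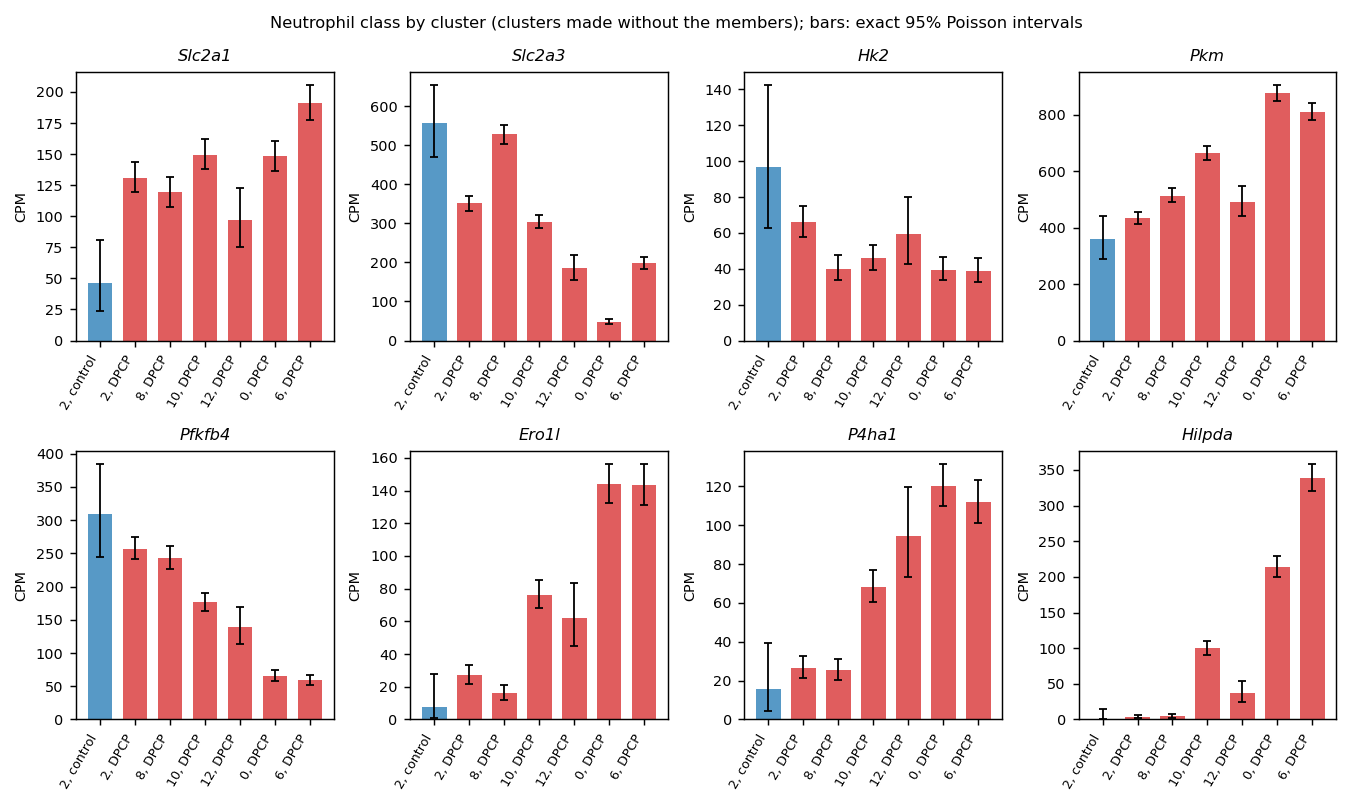
CPM with exact 95% counting intervals of 8 members in control neutrophils of cluster 2 and in DPCP neutrophils of clusters 2, 8, 10, 12, 0 and 6. Cluster 12 was named monocyte from its markers. Hilpda goes from 3.67 CPM in DPCP cells of cluster 2 to 339 CPM in cluster 6, while Pfkfb4 goes from 257 to 59.1 CPM.

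Cells outside the neutrophil class with at least 3 of 9 inflammatory macrophage markers (Arg1, Mmp12, Pdpn, Gpnmb, Inhba, Cav1, Pgf, Nos2 and Cxcl5) numbered 86 in DPCP and 1 in control skin. Of the 86, 69 lay in cluster 18, 8 passed the macrophage gate and 59 fell in no class, so they are set beside the macrophage class rather than inside it. That marker list came from earlier results of these data.

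In these cells 24 of 29 counted members were higher than in control macrophages and none lower, against 20.5% and 23.7% of all genes, with a median log2 ratio of 1.25. Hilpda was at 249 CPM against 7.19 CPM (ratio 34.7, 23.4 to 53.3), Slc2a1 at 131 against 10.3 CPM (ratio 12.8, 8.86 to 18.7) and Ndrg1 at 177 against 15.4 CPM (ratio 11.5, 8.51 to 15.7). Hif1a was at 556 against 117 CPM (ratio 4.75), Slc16a3 at 190 against 40.6 CPM (ratio 4.69) and Pkm at 909 against 238 CPM (ratio 3.83). These ratios set the marked cells, of which 8 passed the macrophage gate, against gated control macrophages. They are therefore not differences within 1 class and cannot be ranked with the class ratios.

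Set against the 198 DPCP macrophages without those markers, 15 of 28 members were higher and 2 lower in the marked cells. The shares of all genes were 17.2% and 19.6%. Ndrg1 was 4.93-fold (3.75 to 6.53) and Hilpda 4.38-fold (3.51 to 5.49) the level of those macrophages, and Slc2a1 2.5-fold (1.92 to 3.26). The lower genes were Pfkfb4 (ratio 0.627) and Pdk1 (ratio 0.59, 0.352 to 0.95). Bnip3 was at 98.9 against 42.3 CPM and Ero1l at 118 against 45.1 CPM, so both the mitophagy receptor and the oxidase were higher in the marked cells while the dehydrogenase kinase was lower.

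**Figure D5:**
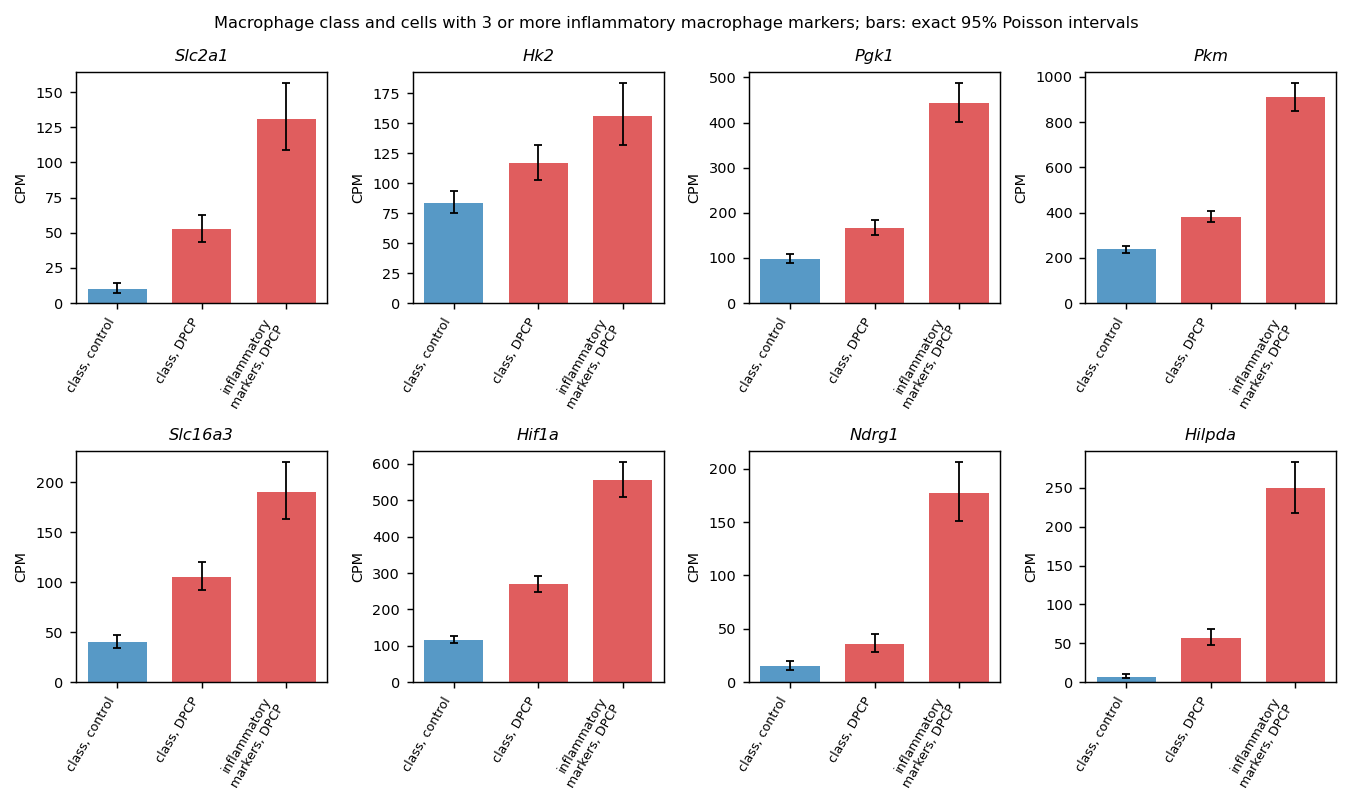
CPM with exact 95% counting intervals of 8 members in control macrophages (393 cells), DPCP macrophages without inflammatory macrophage markers (198 cells) and DPCP cells with those markers (86 cells). All 8 genes are highest in the marked cells, with Hif1a at 117, 270 and 556 CPM.

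Genes of neighbouring pathways outside the 35 were counted from set lists by the same fold limit. Of 29 other HIF target genes, 7 of the 20 counted in neutrophils were higher and 4 lower, 7 of 18 in macrophages with 2 lower, 7 of 15 in mature dendritic cells with none lower, and 6 of 13 in Langerhans cells with 2 lower. The shares of all genes were 17% higher and 28.4% lower in neutrophils, 11.5% and 8.39% in macrophages, 22% and 10.8% in mature dendritic cells, and 26.3% and 18.6% in Langerhans cells. Vegfa, the vascular growth factor, was at 4.88 and 46.5 CPM in macrophages (ratio 9.52, 5.8 to 16.4) and 27.8 and 279 CPM in Langerhans cells (ratio 10, 5.98 to 18.2). Of the gated DPCP macrophages, 22 cells (10.7%) lay in cluster 16, named Langerhans from its markers. Their part in the macrophage Vegfa level was not tested. Hmox1, heme oxygenase, was at 9.27 and 106 CPM in Langerhans cells and Bhlhe40, a transcriptional repressor, at 20.2 and 151 CPM in neutrophils (ratio 7.49, on 6 control UMIs). In T cells 1 of 12 was higher and 2 lower, against 11.1% and 8.78% of all genes.

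The glycogen list had 4 of 7 counted genes higher in macrophages and none lower, where 11.5% and 8.39% of all genes were. Pygl, the phosphorylase that releases glucose from glycogen, was at 37.5 and 97.3 CPM there (ratio 2.59, 2.1 to 3.22) but at 980 and 643 CPM in neutrophils (ratio 0.656). The part of neutrophil RNA in its macrophage level was not tested. Of the 7 pentose phosphate genes, none was called in macrophages, and 2 of 7 were lower in neutrophils, near the 28.4% of all genes there. Mpc1, a subunit of the mitochondrial pyruvate carrier, was lower in neutrophils (320 and 122 CPM, ratio 0.382, 0.311 to 0.474) and higher in mature dendritic cells (88.1 and 203 CPM, ratio 2.3). Thus neutrophils had more Slc16a3 and less Mpc1 RNA after DPCP.

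Among other glycolysis isozymes, Eno3, the muscle-type enolase, was at 221 and 104 CPM in mature dendritic cells (ratio 0.469). Arnt, the partner of HIF-1 alpha, was higher in neutrophils (43.8 and 92.8 CPM, ratio 2.12) and macrophages (75 and 117 CPM, ratio 1.55).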

How the data were processed

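Whole UMI counts per gene and cell were used as the authors deposited them. The file headers name Cell Ranger 7.0.0 and the submitters' processing notes name Cell Ranger 6.1.1, Seurat 4.0.1 and mm10; which version made the matrix is not settled. Barcodes were assigned to the control and the DPCP tag by their suffix, per the deposited aggregation table, and the 1 sample per condition has no replicate.

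Cells under 200 genes or over 10% mitochondrial UMIs were left out. A cell joined the marker list with the highest share of positive markers if at least 30% were positive and the lead over the next list was at least 5 percentage points; 841 kept cells sat at the smallest number of markers allowed. Clusters (scanpy 1.11.5, Leiden, resolution 1, 2000 variable genes, 30 components) were made without the 35 genes. Doublets were not removed, because Scrublet called 46 of 12558 cells, too few for it to have worked. Type 1 conventional and plasmacytoid dendritic cells and smaller classes were not analysed here.

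UMIs were summed per condition and class with Python 3.11.15, numpy 2.4.6 and scipy 1.17.1. CPM carries an exact Poisson interval and each ratio an exact conditional binomial interval, both 95% and for counting error only; UMI counts set the precision, from 297004 UMIs in control neutrophils to 28575407 in control Lyz1 and Retnla cells. No test between conditions was possible. A gene with no UMI on 1 side was given the bound that 3 counts allow, and no ratio where that bound lay on the other side of 1. The ratio code was tested on simulated data. TMM factors came from edgeR 4.0.16.

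Values in full were given, per class, for members with the highest and lowest ratios whose interval excluded 1 and for the most abundant members; other genes came only from the pathway lists. The members, the marker and pathway lists and the Lyz1 and Retnla class were chosen with earlier results of these data known. Alternatives changed the cell filter, gate, clusters, scaling, UMI minimum, fold, tag purity, doublet scores and cells with neutrophil RNA. Neutrophils within the shared cluster, neutrophils cluster by cluster and the cells with inflammatory macrophage markers were added after seeing the data.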

Additional observations from a re-analysis of the deposited data

Results flagged for a closer look

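For 5 members the DPCP over control ratio went in opposite directions in a pair of cell classes, each beyond counting error, and with 1 sample per condition the difference between the classes was not tested. The hexokinase gene Hk2 had a log2 ratio of 1.52 in mature dendritic cells and -0.93 in dendritic epidermal T cells, the latter -0.40 where a cell's own tag held at least 80% of its tag counts. Ldha, the lactate dehydrogenase subunit, had 0.89 and -0.64 in the same classes, the latter -0.50 under the same tag limit. Pfkfb4 had 1.17 in dendritic epidermal T cells and -0.91 in neutrophils; the former was 0.17 without cells holding neutrophil RNA and the latter -0.27 within the neutrophil cluster that both conditions share. The glucose transporter gene Slc2a3 had 1.14 in dendritic epidermal T cells, which became -0.44 without cells holding neutrophil RNA, and -1.05 in type 2 conventional dendritic cells. With every cell weighted equally the latter was -0.55. Ero1l had 3.02 in neutrophils, on 3 control UMIs, and -0.86 in T cells.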

How the results depend on the processing

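With 1 tagged sample per condition there was no replicate to leave out, and no paired analysis was possible because no number pairs samples. Of 268 counts of members recomputed under an alternative, 224 stayed within 1.5 times the reported count and 44 did not; of 1298 ratios, 1227 moved by less than counting error, 65 moved further and 6 changed direction. Counting only genes with at least 200 UMIs left fewer genes, with higher counts of 10 in macrophages, 9 in mature dendritic cells, 5 in Langerhans cells and 2 each in type 2 conventional dendritic cells, dendritic epidermal T cells and T cells, and lower counts of 1 in dendritic epidermal T cells and 0 in mature and type 2 conventional dendritic cells, T cells and Lyz1 and Retnla cells. A minimum of 10 UMIs gave lower counts of 2 in mature dendritic cells, 4 in Langerhans cells and 5 in T cells. A fold of 2 gave higher counts of 9 in neutrophils, 8 in macrophages, 10 in mature dendritic cells, 4 each in monocytes and Lyz1 and Retnla cells, 1 in T cells and 8 over all kept cells, and lower counts of 0 in neutrophils, Lyz1 and Retnla cells, dendritic epidermal T cells, T cells and all kept cells. For the following the cause was not tested. Clusters in place of the gate gave 7 higher in macrophages, 3 higher and 1 lower in type 2 conventional dendritic cells and 2 lower in Lyz1 and Retnla cells, and turned the log2 ratio of Hilpda in macrophages to -0.25 and of Hk3 in type 2 conventional dendritic cells to -0.0040. Leaving out cells with neutrophil RNA gave 3 higher in type 2 conventional dendritic cells and 3 in dendritic epidermal T cells, 1 lower each in macrophages and monocytes and 0 in Lyz1 and Retnla cells, and turned Hk3 and Slc2a3 in dendritic epidermal T cells to -0.087 and -0.44. Without the 5% of cells with the highest doublet scores, 5 were higher in dendritic epidermal T cells, 2 higher and 1 lower in T cells and 1 lower in macrophages, and Hilpda in Lyz1 and Retnla cells turned to -0.11. TMM scaling gave 2 lower in mature dendritic cells and 1 over all kept cells; equal weight per cell gave 4 lower over all kept cells and turned Slc2a1 in mature dendritic cells to -0.37; no cell filter gave 1 lower over all kept cells. In the neutrophil cluster that both conditions share, chosen after seeing the data, 8 were higher.

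Some alternatives gave no value: Langerhans cells fell under 50 cells with the stricter filter, the stricter gate, and without neutrophil RNA or high doublet scores, the T cell cluster stayed unnamed, too few T cells had a tag share of 80%, and Hilpda had no ratio in the shared neutrophil cluster. Depth limits the neutrophil ratios most, since control neutrophils held 297004 UMIs. No result was set against the spread between mice.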
